A study of Mus musculus with 6 samples.

Results

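The genes described here encode glycosyltransferases and sulfotransferases, the enzymes that build and sulfate the sugar chains of glycoproteins, glycolipids and proteoglycans. They were chosen by symbol among protein-coding genes, from the families Galnt, St3gal, St6gal, St6galnac, St8sia, B3gnt, B3galt, B4galt, B4galnt, Gcnt, Fut, Mgat, Chst, Hs2st, Hs3st, Hs6st, Ndst and Ext. The choice gave 89 of the 15634 genes listed, and 88 of them had enough counts to be tested. Mgat5b, the remaining one, had between 5 and 16 counts in each library. RNA was sequenced from 6 samples of mesenchymal stem cells (MSCs, adherent stromal cells) grown from bone marrow; the mice were C57BL/6J without a genetic change. Unstimulated cells gave 3 Control libraries, and cells given TNF-α, an inflammatory cytokine, at 10 ng/mL for 24 h gave 3 TNF libraries. Whether replicates are separate cultures or animals is not stated, so the p-values reflect the spread of these samples alone, which may be technical.

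Sugar chains are built in the endoplasmic reticulum and Golgi apparatus by enzymes that each add a sugar or a sulfate in a fixed linkage. N-glycans are attached to asparagine and branched by the MGAT enzymes, while mucin-type O-glycans are started on serine or threonine by the GALNT enzymes. Glycosaminoglycans, such as heparan sulfate and chondroitin sulfate, are long sulfated chains on proteoglycans that bind growth factors and chemokines in the matrix around marrow stromal cells. Sialic acid and fucose cap many chains and form part of the ligands of siglecs and selectins.

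Library totals ranged from 45629973 to 77142418 counts. TNF library 2 stood apart in 18S ribosomal RNA, at 19.4% of its total, where the range elsewhere was 1.10% to 3.55%. TPM values (a level per transcript length) count 18S in their total, so 18S lowers all other TPM values of that library. TNF means and SDs in TPM below carry this, unless 18S is said to be left out. Control library 2 stood apart in mitochondrial mRNA, at 4.45% of its total, where the range elsewhere was 1.59% to 2.16%. All 11 stromal marker genes were tested, and their summed level was 9898 to 13730 CPM in Control and 6693 to 6888 CPM in TNF (counts scaled to library size by TMM). In each library most of this sum was Col1a1, which fell from 8204 ± 1686 to 3938 ± 109 CPM (mean ± SD, n = 3). The lower sum therefore does not describe the list as a whole. Thy1 also fell, Cd44, Pdgfra and Lepr rose, and the other 6 were not called. All 19 macrophage and monocyte markers were also tested, 4 of them higher and 8 lower in TNF. Called markers made up 63.2% of this list and 45.5% of the stromal list, where 32.4% of all tested genes were called. Cybb (82.2 ± 18.5 to 394 ± 44.8 CPM), Cd14, Csf1r and Spi1 rose. C1qa, C1qb, C1qc, Mrc1, Cx3cr1, Cd68, Aif1 and Laptm5 fell. The summed level of these 19 markers was 2669, 3926 and 2621 CPM in Control libraries 1, 2 and 3 and 2503 to 2599 CPM in TNF. Control library 2 stood well above the rest, and Control libraries 1 and 3 lay close to the TNF range. Lyz2, which was not called, was the largest part of this sum in each library. Close sums do not show that the single markers were unchanged. The part of either marker list in the results below was not tested. In bulk RNA, fewer cells of a type and less RNA per cell cannot be told apart. Of 5 endothelial markers only Kdr was listed, at 0.266 ± 0.0524 CPM in Control and 0.0888 ± 0.0253 CPM in TNF, and of 5 lymphocyte markers 0 were.

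Members that rose and members that fell were both found in 5 of the 12 classes of glycan into which they were sorted. Of the 88 tested members, 16 were higher and 22 lower in TNF by edgeR's quasi-likelihood test at a Benjamini-Hochberg adjusted p under 0.05. Called members made up 43.2% of those tested, where 32.4% of all 15547 tested genes were called (16.0% higher and 16.4% lower). Their median log2 fold change was -0.056, against -0.005 over all genes tested. In 49 members (55.7%) the Control and TNF values were fully apart, where 48.7% of all tested genes showed this. Among called members, 13 differed by 2-fold or more (14.8%, against 11.0% of all tested genes), 5 upward and 8 downward. Scaling by library totals gave 13 members higher and 22 lower, and 1612 and 2571 genes over the whole table against 2489 and 2550 with TMM. Without TNF library 1 the counts of members were 14 higher and 14 lower.

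Among enzymes of heparan sulfate, 5 of 14 were higher and 0 lower, counting chain synthesis (2 of 5) and sulfation (3 of 9) together. Ndst1, among these 5, lost its call without any 1 of the libraries other than Control library 2. Of the enzymes that sulfate chondroitin and dermatan, 3 of 6 were higher and 1 lower, and of those that branch N-glycans 2 of 6 were higher and 0 lower. The share called was 33.3% in both heparan sulfate sulfation and N-glycan branching, near the 32.4% of all tested genes (16.0% higher and 16.4% lower). Whether any class differed from all genes in its share called was not tested. Lower genes prevailed among O-glycan initiation (7 lower and 1 higher of 16), antenna elongation (5 and 1 of 15) and sialylation (5 and 2 of 10). Of 48 members with a mean over 10 TPM (a level per transcript length), 17 were called and 3 of those changed at least 2-fold, Ext1, St3gal1 and St3gal3. Of the 40 tested members at 10 TPM or less, 21 were called and 10 of those changed at least 2-fold; the difference was not tested.

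**Figure D1:**
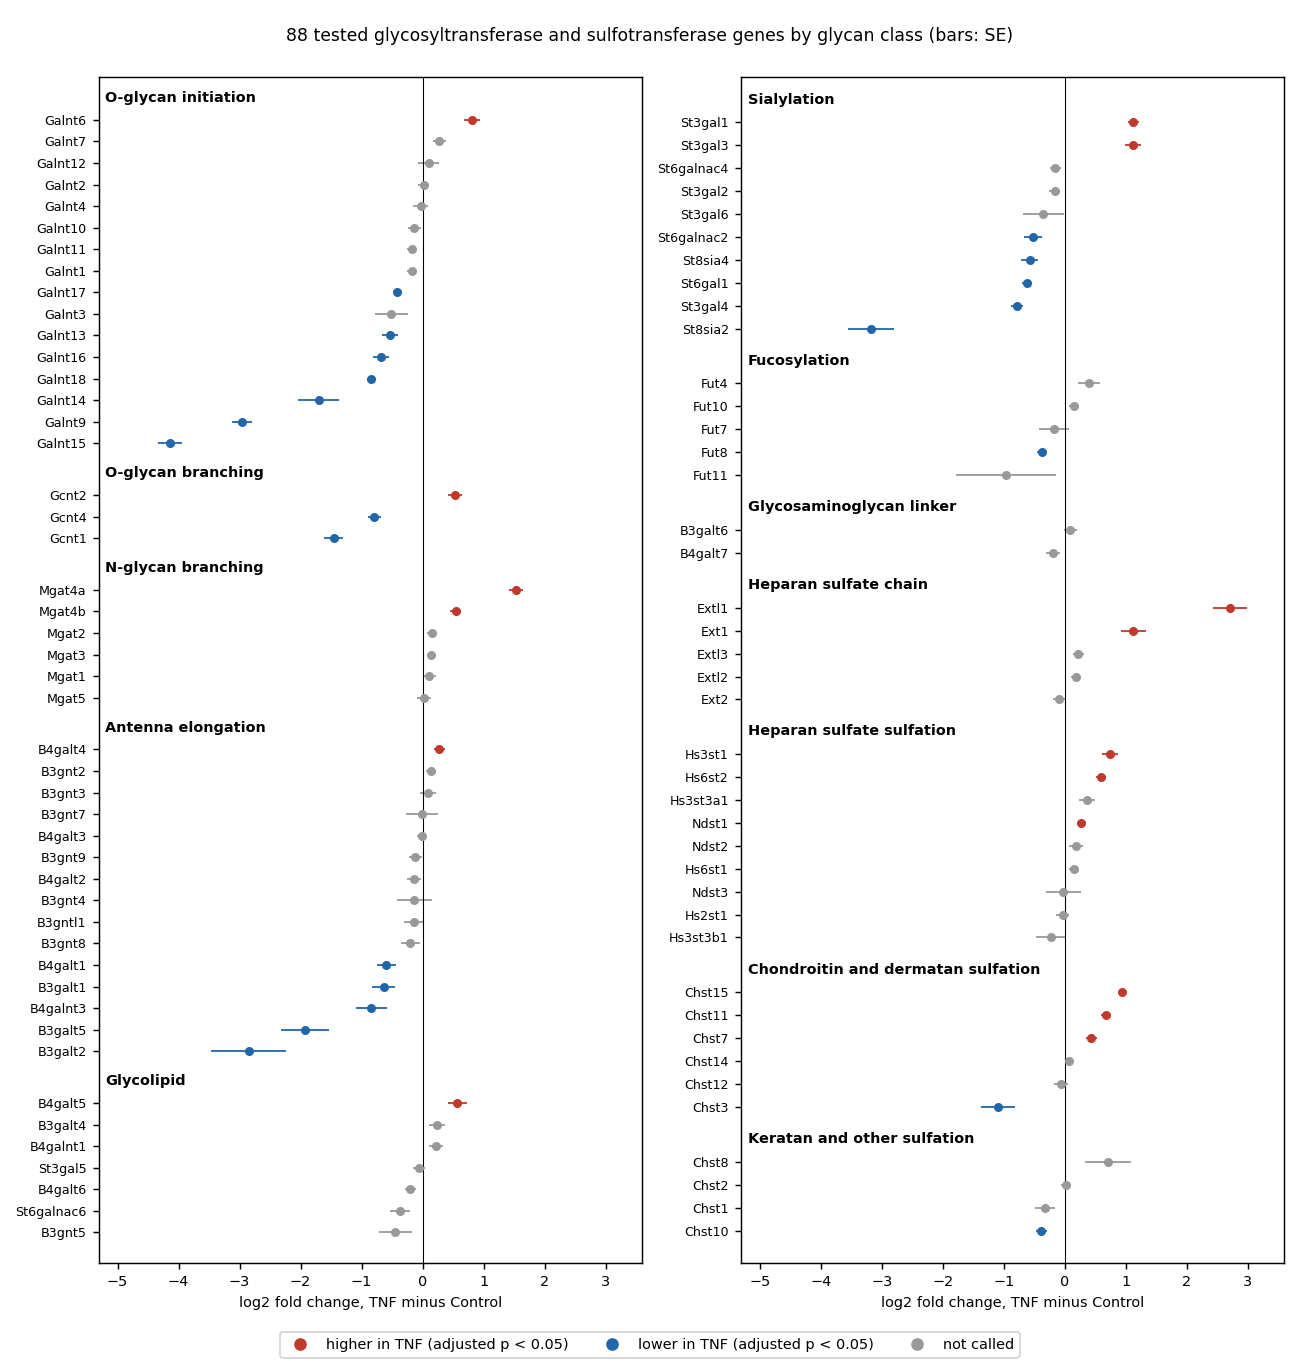
Fitted log2 fold change (TNF minus Control, x axis) of each of the 88 tested members, grouped by glycan class, with bars for the SE from 3 libraries a group. Red marks the 16 members called higher, blue the 22 called lower and grey the rest; Galnt15 lies lowest at -4.14 and Extl1 highest at 2.71.

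Promoter sequences are shown for 3 members that rose and 3 that fell, all by at least 2-fold, so that members that moved together can be compared. The sequences are the 250 bases before the transcription start, from RefSeq in build GRCm38.p6, which held 72 of the 89 members. Ext1 and St3gal1 were not among them. In each direction the 3 shown had the largest changes among the called members held. Where a gene had several starts, the one farthest upstream is printed. Letters run 5′ to 3′ on the strand of the gene, and capitals mark matches on either strand to an NF-kB-like motif (GGG, any 5 bases, CC), an interferon response element (ISRE-like: TTTC, any 2 bases, TTTC) or a GAS-like motif (TTCNNNGAA). In Mgat4a 2 overlapping NF-kB-like matches form 1 run of capitals, and the match nearest the middle of Extl1 is ISRE-like.
Extl1 (chr4:134372548-134372797, minus strand): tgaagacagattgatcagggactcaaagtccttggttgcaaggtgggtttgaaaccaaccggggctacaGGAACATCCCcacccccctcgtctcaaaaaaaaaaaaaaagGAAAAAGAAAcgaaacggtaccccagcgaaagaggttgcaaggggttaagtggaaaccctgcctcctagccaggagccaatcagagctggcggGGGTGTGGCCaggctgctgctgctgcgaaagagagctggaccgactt
Mgat4a (chr1:37541017-37541266, minus strand): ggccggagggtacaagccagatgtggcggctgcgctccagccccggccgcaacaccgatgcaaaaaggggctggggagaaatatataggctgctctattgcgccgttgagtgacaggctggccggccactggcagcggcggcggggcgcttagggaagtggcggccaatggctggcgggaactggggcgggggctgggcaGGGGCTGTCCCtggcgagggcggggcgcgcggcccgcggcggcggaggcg
St3gal3 (chr4:118134947-118135196, minus strand): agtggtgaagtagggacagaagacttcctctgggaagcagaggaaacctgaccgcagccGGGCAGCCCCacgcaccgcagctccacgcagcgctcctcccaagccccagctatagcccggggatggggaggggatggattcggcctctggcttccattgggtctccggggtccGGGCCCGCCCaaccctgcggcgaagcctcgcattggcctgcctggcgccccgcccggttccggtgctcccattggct
Galnt15 (chr14:32028853-32029102, plus strand): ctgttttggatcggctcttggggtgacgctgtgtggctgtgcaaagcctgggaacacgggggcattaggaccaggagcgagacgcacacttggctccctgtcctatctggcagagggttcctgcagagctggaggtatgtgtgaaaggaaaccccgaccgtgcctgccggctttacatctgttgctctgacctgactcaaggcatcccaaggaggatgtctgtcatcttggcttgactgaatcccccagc
St8sia2 (chr7:74013683-74013932, minus strand): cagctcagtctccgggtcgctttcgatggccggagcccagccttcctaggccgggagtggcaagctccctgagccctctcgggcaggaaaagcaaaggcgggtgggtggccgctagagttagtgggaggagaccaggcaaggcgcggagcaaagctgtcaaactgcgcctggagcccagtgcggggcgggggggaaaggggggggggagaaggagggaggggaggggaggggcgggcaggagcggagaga
Galnt9 (chr5:110544105-110544354, plus strand): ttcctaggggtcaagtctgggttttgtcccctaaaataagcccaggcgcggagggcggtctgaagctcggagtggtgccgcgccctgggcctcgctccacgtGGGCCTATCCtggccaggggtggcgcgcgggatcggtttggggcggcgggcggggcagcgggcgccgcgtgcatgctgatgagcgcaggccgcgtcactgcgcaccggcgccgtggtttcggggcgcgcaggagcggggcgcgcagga

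Extl1, Mgat4a and St3gal3 rose, and Galnt15, St8sia2 and Galnt9 fell. The Extl1 sequence holds 2 NF-kB-like matches and 1 ISRE-like match, Mgat4a and St3gal3 hold 2 NF-kB-like matches each, and Galnt9 holds 1. Galnt15 and St8sia2 hold none of the 3 motifs in this window. Of the other members that fell at least 2-fold, Galnt14 and Chst3 hold 3 NF-kB-like matches each. Gcnt1 and B3galt5 hold 1 each at the start farthest upstream, B3galt5 with 1 GAS-like match besides, and B3galt2 holds none. The NF-kB-like letters are common: 45.8% of 32851 windows of this length in the table hold them, against 2.98% for the ISRE-like and 7.02% for the GAS-like motif. Counted per gene over all its starts, 11 of 12 matched members that were higher held an NF-kB-like match, as did 12 of 20 that were lower and 28 of 40 that were not called. The uncalled group here includes Mgat5b, which was not tested and held a match. The share over all 27025 genes of the table was 48.7%. The windows of members were richer in G and C (61.6%) than those of all genes (53.0%), with 61.9% in higher, 59.5% in lower and 62.5% in uncalled members. These matches describe letters only, and no test was made on them.

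Among the members that rose at least 2-fold, Mgat4a and St3gal1 had the smallest adjusted p. Mgat4a, which adds a branch to N-glycans, was at 12.1, 13.3 and 10.1 CPM in Control libraries 1, 2 and 3 and at 33.7, 35.9 and 32.5 CPM in TNF libraries 1, 2 and 3. All TNF values lay above all Control values, with a log2 fold change of 1.52 ± 0.11 (SE, adjusted p = 2e-05). St3gal1, which puts sialic acid on the galactose of O-glycan cores, was at 26.9, 31.1 and 27.0 CPM in Control and 63.6, 58.1 and 63.3 CPM in TNF. Its groups were also apart, with a log2 fold change of 1.12 ± 0.09 (adjusted p = 2.73e-05). Galnt15, which fell most, is described with its family below.

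**Figure D2:**
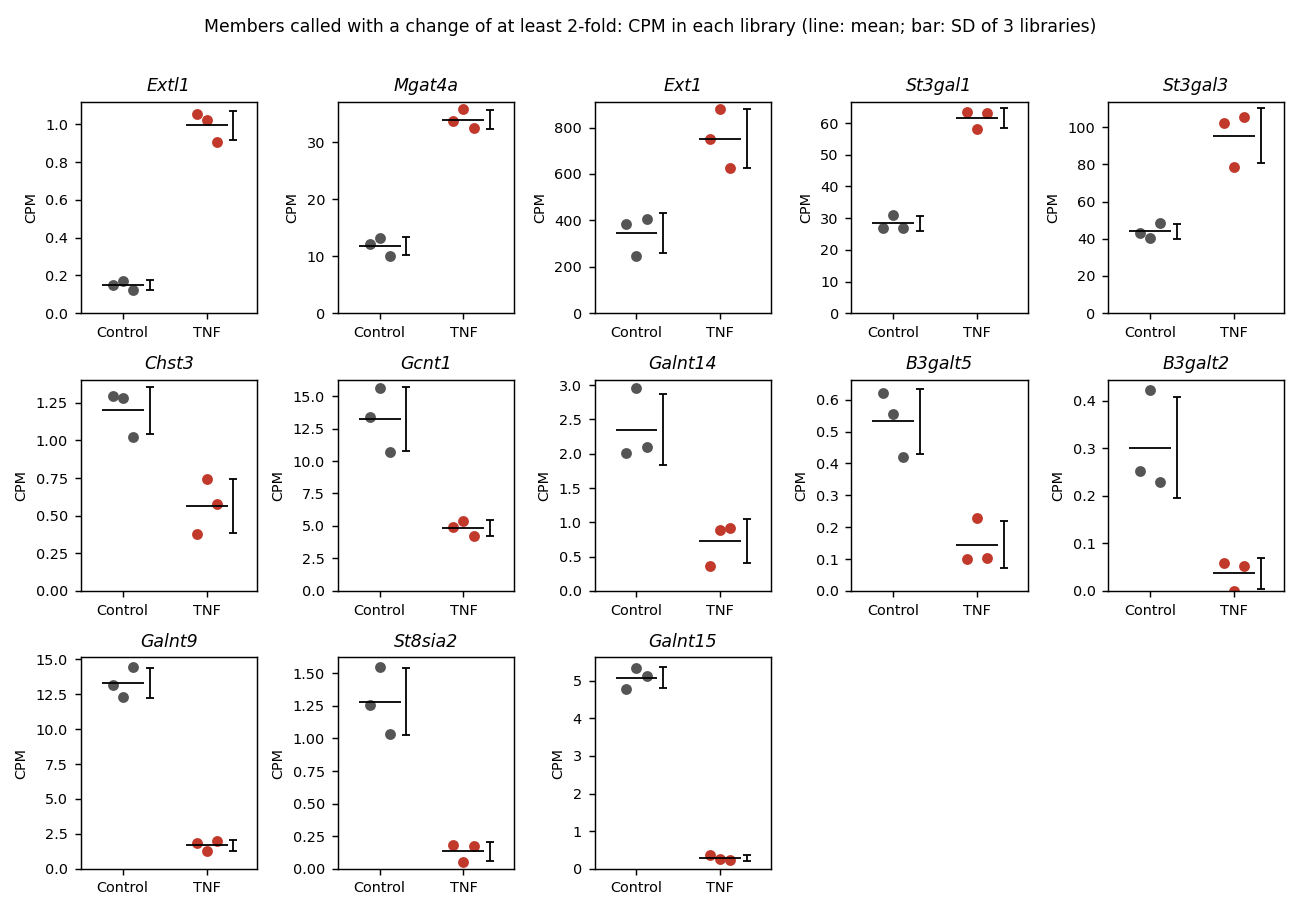
CPM (y axis, linear from 0, scale differs by panel) in each of the 3 Control (grey) and 3 TNF (red) libraries for the 13 members called with a change of at least 2-fold. Horizontal lines are means and the bars beside them SDs; the groups do not overlap in any of the 13 panels.

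O-glycan initiation enzymes were lower in 7 of 16 tested genes and higher in 1. The median of the 16 log2 fold changes was -0.30. These GALNT enzymes attach N-acetylgalactosamine to serine or threonine and differ in the peptides and tissues they serve. Galnt15 was at 4.77, 5.33 and 5.13 CPM in Control and at 0.378, 0.255 and 0.227 CPM in TNF. All TNF values lay far below all Control values, with a log2 fold change of -4.14 ± 0.20 (adjusted p = 1.65e-06). Galnt9 was at 13.2, 12.3 and 14.5 CPM in Control and 1.87, 1.25 and 1.97 CPM in TNF (log2 fold change -2.95 ± 0.16, adjusted p = 3.31e-06). Galnt14 had 2.02, 2.95 and 2.09 CPM in Control and 0.358, 0.894 and 0.924 CPM in TNF, with TNF library 1 lowest (log2 fold change -1.70 ± 0.33, adjusted p = 0.00468). Galnt18 (-0.84), Galnt16 (-0.68), Galnt13 (-0.54) and Galnt17 (-0.42) also fell. Galnt6 was the member that rose, with 8.54 ± 1.53 CPM in Control and 14.9 ± 0.606 CPM in TNF.

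The genes that fell most were minor members of this family. Per transcript length, Galnt2 had the highest level, 97.2 ± 5.12 TPM in Control and 93.6 ± 11.3 TPM in TNF, followed by Galnt10 and Galnt1. These 3 were not called, with log2 fold changes of 0.016 ± 0.08 for Galnt2 (adjusted p = 0.896), -0.14 for Galnt10 and -0.18 for Galnt1. Galnt15 held 0.344% ± 0.0133 of the family's summed TPM in Control and 0.0227% ± 0.00612 in TNF, and Galnt9 2.24% ± 0.303 and 0.306% ± 0.0597. Galnt18, a more abundant member, went from 14.5% ± 0.918 to 9.49% ± 0.870 of the family. Galnt7 (0.28), Galnt12 (0.10), Galnt4 (-0.033), Galnt11 (-0.17) and Galnt3 (-0.51) were not called. Galnt13 lost its call without TNF library 1 (adjusted p = 0.0599).

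All 3 listed enzymes that branch O-glycans or polylactosamine were called, in opposite directions. Gcnt1, which makes the core 2 branch used in selectin ligands, was at 13.4, 15.6 and 10.7 CPM in Control and at 4.93, 5.39 and 4.20 CPM in TNF. The groups were apart, with a log2 fold change of -1.46 ± 0.16 (adjusted p = 0.000167). Gcnt4, another core 2 enzyme, fell from 8.24 ± 0.748 to 4.76 ± 0.199 CPM. Gcnt2, which makes the I branch of polylactosamine, rose from 6.78 ± 0.362 to 9.83 ± 1.30 CPM. Of the summed TPM of the 3 genes, Gcnt1 held 47.9%, 53.2% and 49.1% in the Control libraries and 31.8%, 28.7% and 27.3% in the TNF libraries, while Gcnt2 went from 24.96% ± 1.99 to 50.4% ± 2.69.

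N-glycan branching enzymes were higher in 2 of 6 and lower in 0, and both higher genes make the same branch. Mgat4a is described above. Mgat4b, which catalyses the same step, was at 102, 111 and 113 CPM in Control and at 158, 146 and 173 CPM in TNF, without overlap (log2 fold change 0.54 ± 0.09, adjusted p = 0.00235). Its call was kept in each repeat without 1 library. It was lost with limma on log2(TPM + 1) or log2(TPM + 0.1) values. Per transcript length, Mgat4b was the more abundant of the pair in both groups, with 93.5 ± 7.43 and 123 ± 18.7 TPM against 3.04 ± 0.374 and 8.19 ± 0.366 TPM for Mgat4a. Mgat1, which opens the route to complex N-glycans and had the highest level in the class, was at 184 ± 18.2 and 198 ± 16.1 CPM and was not called (log2 fold change 0.11 ± 0.11, adjusted p = 0.453). Mgat5, which makes the branch most often extended with polylactosamine, was at 68.2, 85.1 and 63.6 CPM in Control and 73.0, 78.2 and 69.8 CPM in TNF. Its groups overlapped, with a log2 fold change of 0.026 ± 0.12 (adjusted p = 0.882). Mgat2, of the second antenna, and Mgat3, of the bisecting sugar, had 0.15 and 0.14 on the log2 scale and were not called, although their groups did not overlap.

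Antenna elongation was lower in 5 of 15 genes and higher in 1, and 4 of these 6 genes had a mean under 3 CPM in both groups. B3gnt2, the main enzyme of polylactosamine chains and the highest of the class per transcript length (33.0 TPM over all 6 libraries), did not pass the test, at 38.6 ± 2.44 and 42.6 ± 2.05 CPM (adjusted p = 0.225). B4galt1, which adds galactose to N-glycan antennae, fell from 78.2, 112 and 73.9 CPM in Control to 54.7, 64.8 and 55.3 CPM in TNF. Control library 2 was the highest, and the groups did not overlap (log2 fold change -0.59 ± 0.16, adjusted p = 0.0205). B3galt5, B3galt1 and B3galt2, which make type 1 chains, fell by 1.93, 0.64 and 2.85 on the log2 scale. B3galt5 had at most 0.622 CPM in any library. B3galt2 had 60 counts in Control and 6 in TNF, a ratio of 7.64 with a 95% counting interval of 3.31 to 21.6, which covers counting error only. B4galnt3 fell from 0.862 ± 0.178 to 0.480 ± 0.0422 CPM.

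B4galt4 was the member of this class called higher, by 0.27 on the log2 scale with an adjusted p of 0.0496. Its call was lost in each of the 6 repeats without 1 library (adjusted p up to 0.187). B4galt1 was not called without TNF library 1 or TNF library 3 (adjusted p up to 0.0865), B3galt1 without Control library 1, Control library 2, TNF library 1 or TNF library 2 (up to 0.108), and B4galnt3 without any of the libraries other than Control library 3 (up to 0.132). The other 8 tested members, B4galt2, B4galt3, B3gnt3, B3gnt4, B3gnt7, B3gnt8, B3gnt9 and B3gntl1, had log2 fold changes from -0.20 to 0.08.

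Among glycolipid enzymes 1 of 7 was higher and 0 lower. St3gal5, which makes the ganglioside GM3, was the highest per transcript length, with 121 ± 17.3 TPM in Control and 110 ± 16.6 TPM in TNF, and was not called (log2 fold change -0.053 ± 0.10, adjusted p = 0.712). B4galnt1, which makes GM2 and GD2, a ganglioside used to mark MSCs, was at 109, 112 and 119 CPM in Control and 143, 111 and 142 CPM in TNF. TNF library 2 lay within the Control range (log2 fold change 0.22 ± 0.11, adjusted p = 0.163), and the gene was called without that library. B4galt5, which makes lactosylceramide, rose from 23.1 ± 5.40 to 34.2 ± 2.91 CPM (log2 fold change 0.57 ± 0.16, adjusted p = 0.0239), a call lost without Control library 1, Control library 3, TNF library 2 or TNF library 3 (adjusted p up to 0.0768). B4galt6, which catalyses the same step, was at 96.2 ± 5.03 and 83.6 ± 6.79 CPM and was not called. St6galnac6 (-0.37), B3gnt5 (-0.45) and B3galt4 (0.23) were not called either, the first being called without TNF library 3.

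Sialyltransferases outside the glycolipid class were lower in 5 of 10 and higher in 2, and members of the same family went opposite ways. St3gal3, which caps N-glycan antennae with sialic acid, was at 42.8, 40.3 and 48.6 CPM in Control and at 102, 78.3 and 105 CPM in TNF. TNF library 2 was the lowest of its group, and all TNF values were above all Control values (log2 fold change 1.12 ± 0.13, adjusted p = 0.000242). St3gal1 rose by the same size, as given above. St3gal4, which also caps antennae, fell from 32.9, 31.1 and 33.2 CPM to 18.3, 17.1 and 21.2 CPM (log2 fold change -0.78 ± 0.10, adjusted p = 0.000402). St6gal1, which adds sialic acid to N-glycans in another linkage, fell from 21.4, 23.1 and 22.7 CPM to 14.3, 15.0 and 14.6 CPM, without overlap (log2 fold change -0.61 ± 0.08, adjusted p = 0.000542). St3gal2, the highest of the class per transcript length, was at 219 ± 5.30 and 195 ± 12.4 CPM and was not called (log2 fold change -0.17 ± 0.09, adjusted p = 0.173).

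St8sia2 and St8sia4, the polysialyltransferases that act on the neural cell adhesion molecule, both fell. St8sia2 was at 1.26, 1.55 and 1.04 CPM in Control and at 0.179, 0.0511 and 0.174 CPM in TNF (log2 fold change -3.17 ± 0.38, adjusted p = 0.000301). It was a rare transcript, and its groups lay far apart. St8sia4 went from 7.09 ± 1.17 to 4.77 ± 0.117 CPM and lost its call when TNF library 1 was left out (adjusted p = 0.0522). St6galnac2, which sialylates the first sugar of O-glycans, fell from 3.85 ± 0.299 to 2.68 ± 0.399 CPM, a call lost without Control library 2, Control library 3, TNF library 1 or TNF library 2 (adjusted p up to 0.0847). St6galnac4 (-0.16) and St3gal6 (-0.35) were not called.

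The makeup of the sialyltransferase transcripts shifted while their sum moved little. St3gal3 held 16.4%, 15.3% and 18.9% of the class's summed TPM in Control and 33.7%, 30.3% and 33.9% in TNF. St3gal1 went from 5.42% ± 0.485 to 10.4% ± 0.510, St3gal4 from 14.3% ± 0.522 to 7.49% ± 0.488 and St6gal1 from 4.69% ± 0.331 to 2.74% ± 0.316. St3gal2 went from 40.2% ± 1.28 to 32.2% ± 0.916. Each of these 5 shares was apart between the groups. The summed TPM of the class, with 18S reads left out of the total, was 213 ± 17.3 in Control and 237 ± 16.8 in TNF, and the groups overlapped. Shares within a class do not depend on the 18S reads of a library.

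**Figure D3:**
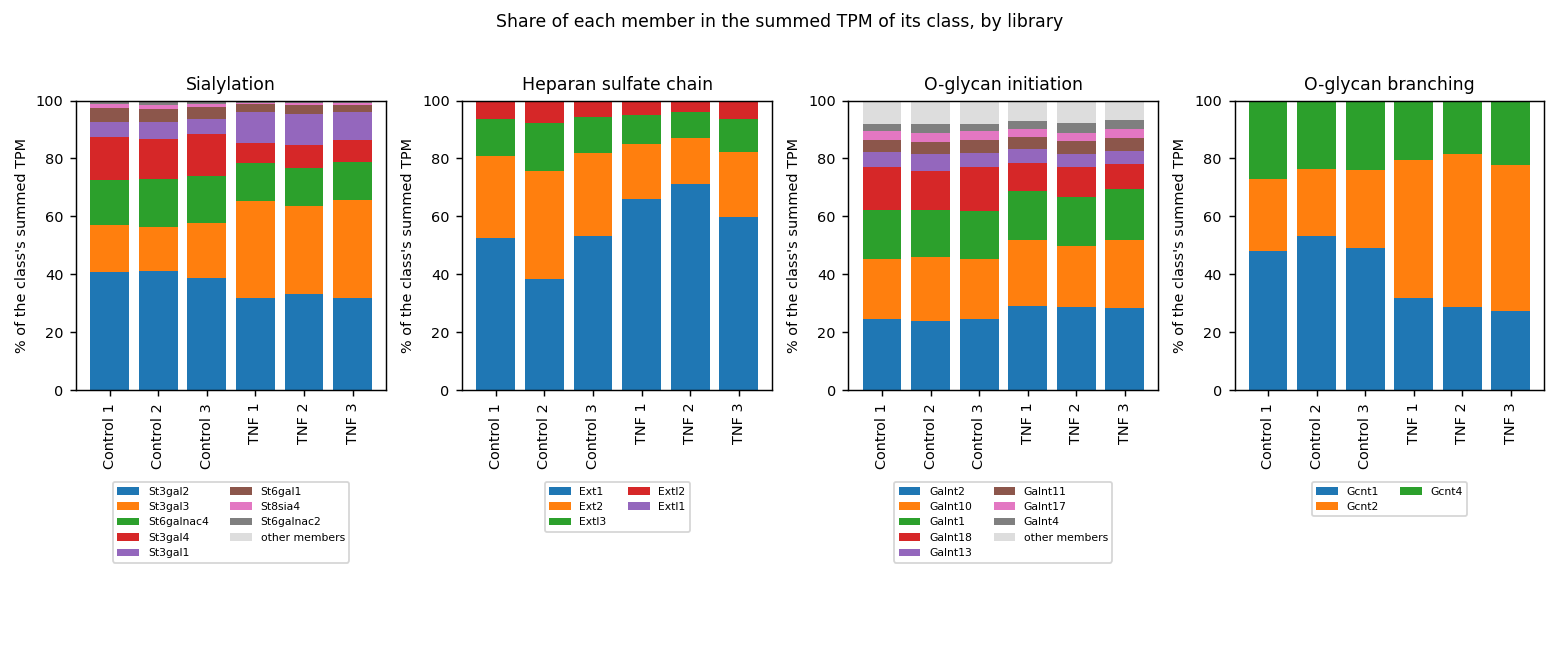
Share of each member in the summed TPM of its class (y axis, percent) in each of the 6 libraries, for sialylation, heparan sulfate chain synthesis, O-glycan initiation and O-glycan branching. St3gal3 (second band of the first panel) and Ext1 (lowest band of the second) are wider in every TNF library than in any Control library, and Gcnt1 is narrower.

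Fucosyltransferases were lower in 1 of 5 and higher in 0. Fut8, which adds the core fucose of N-glycans and was the highest of the class per transcript length, was at 57.7, 55.2 and 57.6 CPM in Control and 46.8, 40.8 and 44.0 CPM in TNF. The groups were apart (log2 fold change -0.37 ± 0.08, adjusted p = 0.00764). Fut4 and Fut7, which complete selectin ligands, were at 1.45 ± 0.240 and 1.68 ± 0.228 CPM in Control and at 1.92 ± 0.0253 and 1.496 ± 0.496 CPM in TNF, and neither was called. Fut10 had 33.1 ± 0.184 and 36.8 ± 1.98 CPM, also without a call. Fut11 is listed at 0 in TNF library 1, with 224 and 257 counts in the other TNF libraries and 329 to 520 in Control, and was not called (adjusted p = 0.402).

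Heparan sulfate chain synthesis held the member with the highest level of all 89 per transcript length, Ext1, and it rose. EXT1 and EXT2 form the complex that extends the chain. Ext1 was at 383, 246 and 405 CPM in Control and at 749, 879 and 627 CPM in TNF. Control library 2 was the lowest, and all TNF values were above all Control values (log2 fold change 1.13 ± 0.20, adjusted p = 0.00309). Its partner Ext2 was at 165, 191 and 174 CPM in Control and 167, 156 and 173 CPM in TNF, with overlap, and was not called (log2 fold change -0.095 ± 0.09, adjusted p = 0.458). In TPM, Ext1 was at 203 ± 61.1 in Control and 405 ± 51.1 in TNF, and Ext2 at 130 ± 2.14 and 116 ± 16.0. Ext1 held 47.9% ± 8.44 of the class's summed TPM in Control and 65.7% ± 5.66 in TNF.

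Extl1, a related enzyme with few reads, had the largest rise of all members. It was at 0.151, 0.172 and 0.123 CPM in Control and at 1.05, 1.02 and 0.907 CPM in TNF (log2 fold change 2.71 ± 0.28, adjusted p = 0.000116). Even so, it held 0.0794% ± 0.0178 of the class's summed TPM in TNF. Extl3, which starts the chain, and Extl2 were at 175 ± 15.7 and 44.8 ± 3.72 CPM in Control and at 204 ± 4.41 and 50.7 ± 1.96 CPM in TNF. Neither was called, but both were called without Control library 2.

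Heparan sulfate sulfation was higher in 3 of 9 genes and lower in 0. Hs6st2, which sulfates the 6 position of glucosamine, was the highest of the class per transcript length. It was at 180, 175 and 170 CPM in Control and at 269, 255 and 270 CPM in TNF, without overlap (log2 fold change 0.59 ± 0.08, adjusted p = 0.00068). Hs6st1, its paralogue, was at 53.1, 50.8 and 55.0 CPM in Control and 61.6, 59.6 and 54.6 CPM in TNF and was not called (log2 fold change 0.15 ± 0.08, adjusted p = 0.197). Hs6st2 held 50.6% ± 0.986 of the class's summed TPM in Control and 59.9% ± 1.598 in TNF. Hs3st1, which makes the antithrombin-binding site, rose from 2.29 ± 0.0480 to 3.82 ± 0.331 CPM (log2 fold change 0.74 ± 0.13, adjusted p = 0.00241).

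Ndst1, which opens sulfation by removing acetyl groups and adding N-sulfate, was at 87.9, 85.5 and 85.2 CPM in Control and at 99.7, 109 and 103 CPM in TNF. The groups were apart by a small margin (log2 fold change 0.27 ± 0.08, adjusted p = 0.0257). The call was lost without any 1 of the libraries other than Control library 2 (adjusted p up to 0.0796). Hs2st1, which sulfates uronic acid, was at 55.8 ± 7.21 and 54.5 ± 1.96 CPM, with overlap (log2 fold change -0.034 ± 0.10, adjusted p = 0.826). Ndst2 (0.18), Ndst3 (-0.026), Hs3st3a1 (0.36) and Hs3st3b1 (-0.23) were not called. Reads of the last pair, which share a nearly identical catalytic region, could be split between them, and Hs3st3a1 was called without Control library 2.

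Enzymes that sulfate chondroitin and dermatan were higher in 3 of 6 and lower in 1. Chst15, which adds the second sulfate of the disulfated chondroitin unit E, was at 26.7, 28.4 and 28.4 CPM in Control and at 54.8, 54.4 and 51.7 CPM in TNF. The groups were far apart (log2 fold change 0.95 ± 0.07, adjusted p = 2.44e-05). Chst11, a chondroitin 4-sulfating enzyme, was at 59.5, 57.9 and 53.7 CPM in Control and at 91.1, 86.3 and 95.03 CPM in TNF (log2 fold change 0.67 ± 0.08, adjusted p = 0.000313). The 6-sulfating enzymes went opposite ways. Chst7 rose from 12.1 ± 0.740 to 16.4 ± 0.842 CPM, and Chst3 fell from 1.29, 1.28 and 1.02 CPM to 0.378, 0.741 and 0.575 CPM (log2 fold change -1.10 ± 0.28, adjusted p = 0.0158). Chst3 lost its call without Control library 1 or TNF library 1 (adjusted p up to 0.0549). Chst7 kept its call in each repeat without 1 library. It was not called when scaled by library totals or with limma on log2(TPM + 1) or log2(TPM + 0.1) values.

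The members of this class with the highest level per transcript length were not called. Chst12, another 4-sulfating enzyme, was at 102 ± 10.9 and 98.4 ± 11.4 CPM (log2 fold change -0.058 ± 0.11, adjusted p = 0.725), and Chst14, which acts on dermatan, was at 51.6 ± 1.98 and 54.2 ± 1.08 CPM. As shares of the class's summed TPM, Chst12 went from 48.8% ± 2.16 to 41.0% ± 2.78, Chst11 from 10.7% ± 1.16 to 15.0% ± 0.478 and Chst15 from 6.22% ± 0.272 to 11.0% ± 0.953. Among sulfotransferases of keratan sulfate and other chains, 1 of 4 was lower and 0 higher. Chst10, of the HNK-1 epitope, fell from 9.45 ± 0.338 to 7.24 ± 0.474 CPM, a call lost without Control library 3 or TNF library 1 (adjusted p up to 0.0657). Chst2, the highest of this class per transcript length, was at 49.5 ± 3.0 and 50.01 ± 2.56 CPM (log2 fold change 0.014 ± 0.08, adjusted p = 0.912). Chst1 (-0.33) and Chst8 (0.71) were not called, and Chst1 was called without Control library 2.

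The enzymes of the linker that joins glycosaminoglycans to their proteins had 0 calls of 2. B4galt7 and B3galt6, which add its galactose units, were at 21.4 ± 2.98 and 5.57 ± 0.413 CPM in Control and at 18.7 ± 1.54 and 5.93 ± 0.473 CPM in TNF (adjusted p = 0.252 and 0.556). At an unadjusted p under 0.05, 0 of the 2 passed edgeR's test, and DESeq2 called 0. The genes around them, from a list of linker and chondroitin chain enzymes, were higher in 5 of 14 and lower in 2. Of all tested genes 32.4% were called, 16.0% higher and 16.4% lower. Whether this list differed from all genes in its share called was not tested. Csgalnact1, which starts the chondroitin chain, rose from 55.8 ± 1.58 to 94.9 ± 8.94 CPM, while Chsy1, which extends it, fell from 49.4 ± 13.0 to 26.0 ± 2.28 CPM. Dsel (0.42), Ust (0.40), Chpf2 (0.37) and Fam20b (0.24) also rose, and Csgalnact2 (-0.47) also fell. Scaling by library totals left 1 higher. Calls were lost for Fam20b in each of the 6 repeats without 1 library, for Ust without Control library 1, Control library 3, TNF library 1 or TNF library 3, and for Chpf2 and Csgalnact2 without Control library 1 or TNF library 1, the latter also without TNF library 2.

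Genes that edit heparan sulfate after it is made, or supply its sulfate, also went both ways. Hpse, the enzyme that cuts heparan sulfate, fell from 2.28 ± 0.273 to 0.621 ± 0.118 CPM, and Sulf2, which removes sulfate at the cell surface, from 565 ± 70.4 to 441 ± 22.4 CPM (adjusted p = 0.0466). Hpse was called in each of the 6 repeats without 1 library and Sulf2 in 0 of them (adjusted p up to 0.114). Sulf1 and the epimerase Glce were not called, but Sulf1 was called higher without Control library 2. Papss2, which makes the sulfate donor PAPS, rose from 19.4, 22.6 and 20.9 CPM to 56.8, 57.0 and 60.9 CPM (log2 fold change 1.47 ± 0.09, adjusted p = 4.24e-06). Slc35b2, which carries PAPS into the Golgi, fell from 98.3 ± 7.92 to 67.8 ± 7.53 CPM, and the other 4 supply genes were not called. Has2, the listed hyaluronan synthase, fell from 23.1 ± 0.687 to 9.45 ± 1.13 CPM (log2 fold change -1.29 ± 0.10, adjusted p = 2.99e-05).

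**Figure D4:**
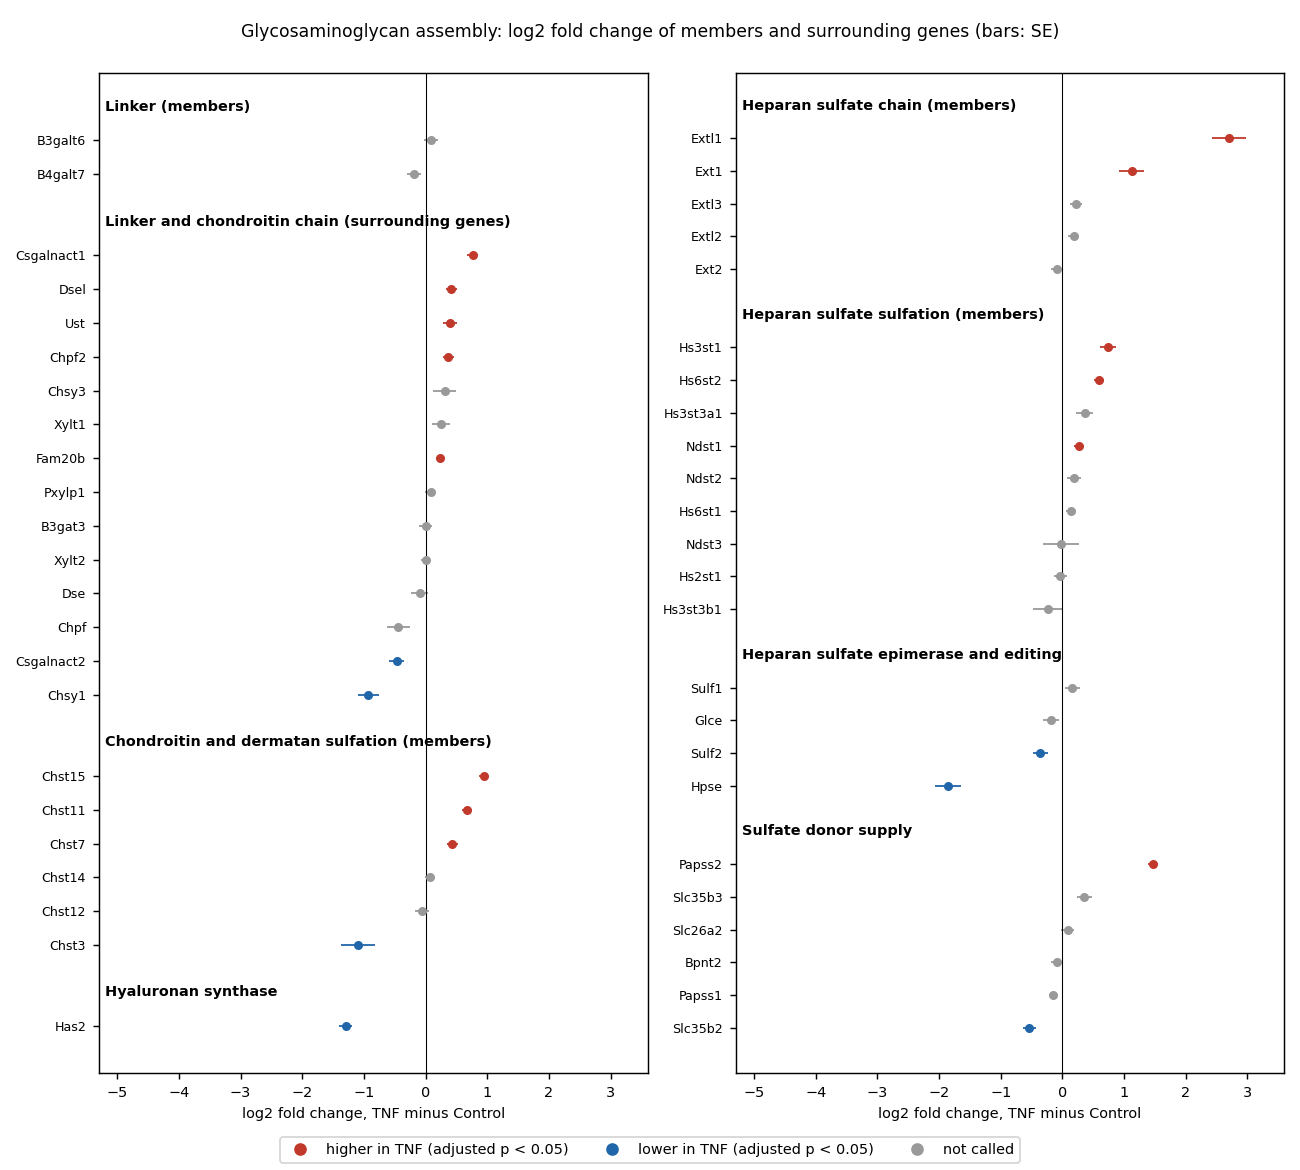
Fitted log2 fold change (TNF minus Control, x axis, bars: SE from 3 libraries a group) of members and surrounding genes along the steps of glycosaminoglycan assembly, red for called higher and blue for called lower. Called members of the heparan sulfate classes all lie to the right of 0, from 0.27 for Ndst1 to 2.71 for Extl1, while Hpse (-1.86) and Has2 (-1.29) lie to the left.

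Of 26 genes that make or carry nucleotide sugars, 3 were higher and 2 lower. Their share called was 19.2%, with 33.3% for N-glycan trimming and 27.8% for other O-glycans and Notch glycosylation. Over all tested genes the share was 32.4%. Slc35c1, the Golgi carrier of GDP-fucose, rose from 27.4 ± 2.98 to 55.3 ± 3.87 CPM, Gfpt2, of hexosamine synthesis, from 3.70 ± 0.290 to 6.12 ± 0.174 CPM and Slc35d1 by 0.53 on the log2 scale. Ugp2 (-0.42) and Gne (-0.28), which starts sialic acid synthesis, fell. Of 9 N-glycan trimming enzymes, Man1a rose (0.89), while Man1c1 (-0.74) and Man2a2 (-0.65) fell. Of 18 genes of other O-glycans and Notch glycosylation, 4 were higher, B3glct (0.66) and C1galt1c1 (0.30) among them, and Lfng (-0.64) fell. Among sialidases Neu1, the lysosomal one, rose from 28.9 ± 1.95 to 42.1 ± 0.689 CPM. Neu2, a rare transcript, fell from 0.280 ± 0.0489 to 0.0544 ± 0.00466 CPM (log2 fold change -2.31). Of glycolipid core enzymes A4galt (0.54) and Ugcg (0.50) rose and B3galnt1 (-0.34) fell. Ugcg, A4galt and C1galt1c1 were not called without Control library 1, Control library 3, TNF library 1 or TNF library 2, nor was B3galnt1 without Control library 1, TNF library 1 or TNF library 2 (adjusted p up to 0.1065 over these genes). Slc35d1 was not called without TNF library 2 or any 1 Control library, nor Gne without any 1 of the libraries other than Control library 1 (adjusted p up to 0.0730 and 0.1003).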

How the data were processed

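RNA was measured by sequencing in 3 Control and 3 TNF libraries. Per the submitters' processing notes, the authors used Trim Galore, STAR, StringTie and Salmon with build GRCm39; their roles, versions and settings are not given in the sources used here. The deposited expected counts per gene are whole numbers with a different total in each library; per the file headers the title calls them normalized and the column name calls them raw, and they were treated as counts. The deposited TPM values (a level per transcript length) were made by the authors. The count files carry no gene names, so counts were paired with genes by line: all 260 zeros coincided, and log2(count/TPM) had a median SD over libraries of 0.0275, or 0.413 after a shift by 1 line.

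Genes passing edgeR's filterByExpr were tested with edgeR 4.0.16 (TMM scaling, quasi-likelihood test, Benjamini-Hochberg adjustment over all 15547 tested genes, called at an adjusted p under 0.05); the fit was tested on simulated data. SEs are the log2 fold change divided by the root of the F statistic. CPM values are counts scaled to TMM library sizes. Levels of different genes were compared only in TPM. Alternatives were other scalings (RLE, library totals, protein-coding genes only), DESeq2 1.42.0, limma 3.58.1 on voom or log2(TPM + 1 or 0.1) values, other filters (none, 5 CPM) and thresholds (0.01), a replicate block and leaving out libraries. Full values are given for called members with at least 2-fold change and 1 CPM, the highest member of each class in TPM, and Galnt15, Mgat5, St6gal1, B4galnt1, Ext1, Ndst1, Hs2st1, Hs6st1, Chst11 and Fut8. B3galt2, B3galt5, Extl3 and other members given beyond this rule were picked with their values in view. Some genes of the surrounding lists are not reported here by name. Members, classes and gene lists were chosen with earlier results of these data known.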

Additional observations from a re-analysis of the deposited data

How the results depend on the processing

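Of the 16 members called higher, 8 stayed called in all settings, 10 in all settings that tested them and 13 in all 6 repeats without 1 library; of the 22 called lower, 8, 10 and 14 did. The filter at 5 CPM left 28 of the 38 called members to test. In these settings 0 called members changed sign. Where a count moved, the cause was not tested, except that the 5 CPM filter and the stricter threshold test or call fewer genes by construction. With the filter at 5 CPM, 14 members were called lower, antenna elongation had 0 higher and 1 lower, sialylation 3 lower, heparan sulfate chain 1 higher, chondroitin and dermatan sulfation 0 lower, heparan sulfate editing 1 lower and sialidases 0 lower. At an adjusted p under 0.01, 14 members were lower, antenna elongation had 0 higher and 2 lower, glycolipid 0 higher, sialylation 3 lower, chondroitin and dermatan sulfation 0 lower, keratan and other sulfation 0 lower, chondroitin and linker synthesis 2 higher and 1 lower, heparan sulfate editing 1 lower, nucleotide sugar supply 1 lower and glycolipid core 0 higher and 0 lower. With limma on log2(TPM + 1), N-glycan branching had 1 higher, antenna elongation 0 higher and 1 lower, glycolipid 0 higher, fucosylation 0 lower, keratan and other sulfation 0 lower, other O-glycan and Notch glycosylation 2 higher and 2 lower, chondroitin and linker synthesis 1 higher, heparan sulfate editing 1 lower and glycolipid core 0 lower. With log2(TPM + 0.1) these counts were the same except for 2 lower in antenna elongation and 0 higher in O-glycan branching, and the glycolipid count did not move. Scaling by library totals gave 0 higher in antenna elongation, 2 higher in other O-glycan and Notch glycosylation, 1 higher in chondroitin and linker synthesis, 1 lower in heparan sulfate editing and 1 lower in nucleotide sugar supply; it moved the share of all calls that were higher from 49.4% to 38.5%, and log2(TPM + 1) moved it to 40.3%. RLE factors gave 1 lower in heparan sulfate editing, limma-voom 0 higher in antenna elongation and DESeq2 2 higher in sulfate donor supply. Without Control library 2 and TNF library 2 together, an alternative chosen after seeing the data, antenna elongation had 0 higher and 3 lower, glycolipid 2 higher and 1 lower, heparan sulfate chain 4 higher, keratan and other sulfation 2 lower, N-glycan trimming 2 higher, heparan sulfate editing 1 higher and 1 lower, nucleotide sugar supply 6 higher and 1 lower and glycolipid core 0 lower. Leaving out 1 library at a time gave 13 to 18 members higher and 14 to 21 lower, with the lowest count of lower members without TNF library 1. By list it gave 1 to 2 higher in O-glycan initiation; 0 higher and 2 to 5 lower in antenna elongation; 0 to 1 higher and 0 to 1 lower in glycolipid; 3 to 5 lower in sialylation; 2 to 4 higher in heparan sulfate chain. It gave 0 to 1 lower in chondroitin and dermatan sulfation, 0 to 2 lower in keratan and other sulfation, 1 to 2 higher in N-glycan trimming, 2 to 5 higher and 1 to 2 lower in chondroitin and linker synthesis, 0 to 1 higher and 1 lower in heparan sulfate editing, 1 to 2 higher in sulfate donor supply, 1 to 2 lower in nucleotide sugar supply, and 0 to 2 higher and 0 to 1 lower in glycolipid core.

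The log2 fold changes of 17 of the 50 uncalled members crossed 0 in some setting, 5 of them among the genes given with full values. Scaling by library totals gave -0.066 for Chst2, -0.062 for Galnt2 and -0.056 for Mgat5. With log2(TPM + 1) and log2(TPM + 0.1), Galnt2 was at -0.059 and -0.060 and Mgat5 at -0.024 and -0.026. Chst2 was at -0.000 with the 5 CPM filter, and Hs2st1 at 0.079 without both libraries 2. Leaving out 1 library gave -0.128 to 0.039 for Chst12, -0.022 to 0.070 for Chst2, -0.008 to 0.050 for Galnt2, -0.113 to 0.068 for Hs2st1 and -0.052 to 0.161 for Mgat5.

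The replicate numbers were not shown to pair the samples: deviations of same-numbered libraries from their group means correlated at -0.012, -0.304 and -0.222 across genes, and 0 of the 3 Control libraries correlated best with its own number. With the replicate block, 14 members were higher and 19 lower, and over all genes 1987 and 1993; B3galt1, B4galnt3, B4galt4, Ndst1 and St6galnac2 were not called. The block gave 0 higher and 3 lower in antenna elongation, 3 higher in chondroitin and linker synthesis, 1 lower in heparan sulfate editing, 1 lower in nucleotide sugar supply and 0 lower in glycolipid core.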

Other observations

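As a share of protein-coding counts, all members together came to 0.469%, 0.427% and 0.469% in the 3 Control libraries, and to 0.527%, 0.524% and 0.509% under TNF. Without Ext1 these shares were 0.426%, 0.402% and 0.424% in Control and 0.446%, 0.427% and 0.442% in TNF, a smaller gap. The groups nearly touched, at 0.4264% in Control library 1 and 0.4269% in TNF library 2. The protein-coding total includes mitochondrial mRNA, which was highest in Control library 2 (4.45% of all its counts). Fut11 had 0 counts in TNF library 1 and at least 224 in each of the other libraries.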
